A study of Caenorhabditis elegans with 2 samples.

Results

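The 40 genes described here act in the germ line or in meiosis of Caenorhabditis elegans. They were chosen by name from the roles of their products, with earlier results of these data known. All 40 were found among the 19973 protein-coding genes annotated on the nuclear chromosomes. By role, 8 encode P granule proteins, 14 encode regulators of germ cell fate or germ line chromatin, and 18 act on meiotic chromosomes. The data are chromatin immunoprecipitation sequencing (ChIP-seq) of HMG-1.1, a high mobility group box protein, in strain RW12311, whose endogenous hmg-1.1 gene on chromosome II carries a CRISPR insertion, allele st12311, written TY1::EGFP::3xFLAG::hmg-1.1. Chromatin was precipitated with an antibody against GFP (the antibody field of the labels names hmg-1.1) from whole larvae of the fourth stage (L4) at 48 hours, grown from hatchlings synchronised by starvation after bleaching. There are 2 biological replicates, both of this strain and stage, so no condition is compared and no test of one was possible. The values are the authors' peak lists, without read counts, and the depth per sample is therefore unknown.

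In worm germ cells, P granules are RNA and protein condensates on the outside of the nucleus that hold small RNA pathways and maternal transcripts. Regulators such as the Notch receptor GLP-1, the PUF proteins FBF-1 and FBF-2 and the RNA-binding protein GLD-1 decide between stem cell division and entry into meiosis, while the MES proteins methylate histones. In meiosis, pairing centre proteins bring homologous chromosomes together, the synaptonemal complex holds them, SPO-11 cuts the DNA, and RAD-51, MSH-5 and COSA-1 act in the repair that makes crossovers. In the fourth larval stage the gonad holds dividing germ cells and germ cells in meiosis, and sperm are made. Since whole larvae were used, strong binding in few cells and weak binding in many cannot be told apart.

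The sequences under the strongest member sites show what the peaks cover. Shown is the summit, the position of highest enrichment within a peak, with 100 bp to either side, for the members with a summit in both replicates' lists whose window holds no annotated untranslated region. The region between the starts of pgl-1 and him-3 follows, because it is a start region shared by 2 members and had no peak. Each is written 5′ to 3′ on the gene's strand (the plus strand for the pair), read from the RefSeq assembly of the ce11 build, with GCGCG and its reverse complement CGCGC, which overlap each other, in capitals. The windows are chrIV:10284619-10284819 (minus strand), chrIII:5603633-5603833 (plus), chrII:14383730-14383930 (plus), chrIV:11125304-11125504 (minus) and chrIV:6977319-6977507 (plus), in the order printed.
rad-51: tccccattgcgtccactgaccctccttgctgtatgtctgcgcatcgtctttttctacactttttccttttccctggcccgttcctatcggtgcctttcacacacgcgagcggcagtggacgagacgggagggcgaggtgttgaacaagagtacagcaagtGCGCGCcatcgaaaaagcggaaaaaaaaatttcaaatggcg
xnd-1: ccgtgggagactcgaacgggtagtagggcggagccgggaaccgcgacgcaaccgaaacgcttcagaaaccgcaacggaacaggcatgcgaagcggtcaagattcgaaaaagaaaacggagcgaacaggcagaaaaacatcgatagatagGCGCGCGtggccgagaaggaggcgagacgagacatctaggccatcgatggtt
mes-2: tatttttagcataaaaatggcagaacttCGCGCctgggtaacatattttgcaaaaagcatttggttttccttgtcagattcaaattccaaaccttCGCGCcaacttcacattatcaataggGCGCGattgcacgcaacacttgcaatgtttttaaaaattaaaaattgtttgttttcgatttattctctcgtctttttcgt
spo-11: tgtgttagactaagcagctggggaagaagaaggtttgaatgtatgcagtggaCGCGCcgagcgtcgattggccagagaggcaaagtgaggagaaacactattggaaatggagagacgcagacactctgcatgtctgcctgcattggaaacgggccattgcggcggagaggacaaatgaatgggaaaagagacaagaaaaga
pgl-1 and him-3: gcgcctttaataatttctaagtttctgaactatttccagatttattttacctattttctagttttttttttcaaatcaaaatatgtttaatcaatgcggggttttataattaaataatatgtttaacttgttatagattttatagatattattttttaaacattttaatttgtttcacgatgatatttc

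With 100 bp to either side, each of the 4 summit windows held the pentamer GCGCG on either strand. The 189 bp between pgl-1 and him-3 did not. Over all 8 member summits, 6 such windows held it (rad-51, xnd-1, mes-2, spo-11, nos-3 and him-17), against 31.6% of all 4277 windows of the list and 38.0% of the 2013 at protein-coding starts. With 50 bp to either side the count was 4 of 8 (mes-2, spo-11, nos-3 and him-17), against 21.98% and 27.6%. Narrowed this way, the windows of rad-51 and xnd-1 did not hold the pentamer. Of all protein-coding genes, 9.66% had it in the 189 bp upstream of the start. A match describes these letters only. The 7 other motifs were searched on both strands in the narrower windows. TTTTTT matched 1 of 8 member windows and 22.4% of all windows, GAGAGA matched 1 and 28.2%, AACAAT matched 1 and 5.89%, and TTTGAA matched 1 and 12.6%. CTTTGA matched 0 of 8 and 3.90%, TATAAA matched 0 and 4.04%, and ATTTGCAT matched 0 and 0.468%. With 100 bp to either side TTTTTT matched 4 of 8 and 48.98% of all windows, GAGAGA matched 2 and 42.8%, AACAAT matched 2 and 13.8%, and TTTGAA matched 3 and 27.96%. In these windows TATAAA matched 1 and 11.4%, CTTTGA matched 0 and 9.05%, and ATTTGCAT matched 0 and 0.959%.

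The base composition at the member summits depended on the window. The median GC content with 50 bp to either side was 48.5% for the 8 members (41.6 for mes-2 to 55.4 for rad-51) and 48.5% for all summits. With 100 bp to either side the medians were 40.05% for the members and 45.3% for all summits, whose lower quartile was 40.3%. The 2013 summits at protein-coding starts had a median of 44.3% and a lower quartile of 39.3% in these windows. The region between pgl-1 and him-3 had 20.6% GC, and 1.28% of protein-coding genes had as little or less in the same length upstream, where the median was 33.3%. Over the 300 bp upstream of the start, members with a summit had a median of 35% GC and members without one 33%, close to the 35% and 33.3% of all protein-coding genes with and without one.

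Of the 40 genes, 8 had a summit of the conservative list within 1000 bp of the start: rad-51, xnd-1, spo-11, him-17 and syp-2 of the meiotic chromosome genes, and mes-2, nos-3 and mes-6 of the regulators. The conservative list is the smaller of the authors' peak sets made from both replicates after a cut on the irreproducible discovery rate (IDR), and it holds 4277 peaks. The 8 genes are 20% of the members (95% Wilson interval 10.5 to 34.8), and the same distance reached 13.0% of all protein-coding genes, so the interval includes the background. In the lists of the single replicates 5 members (12.5%) and 6 members (15%) had a summit, a mean of 13.75% ± 1.77 (SD, n = 2), against 8.16% and 9.63% of all genes. In all 3 lists there were 5 of the 40 (12.5%) against 6.86% of all genes. Intervals cover counting error over genes only.

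**Figure D1:**
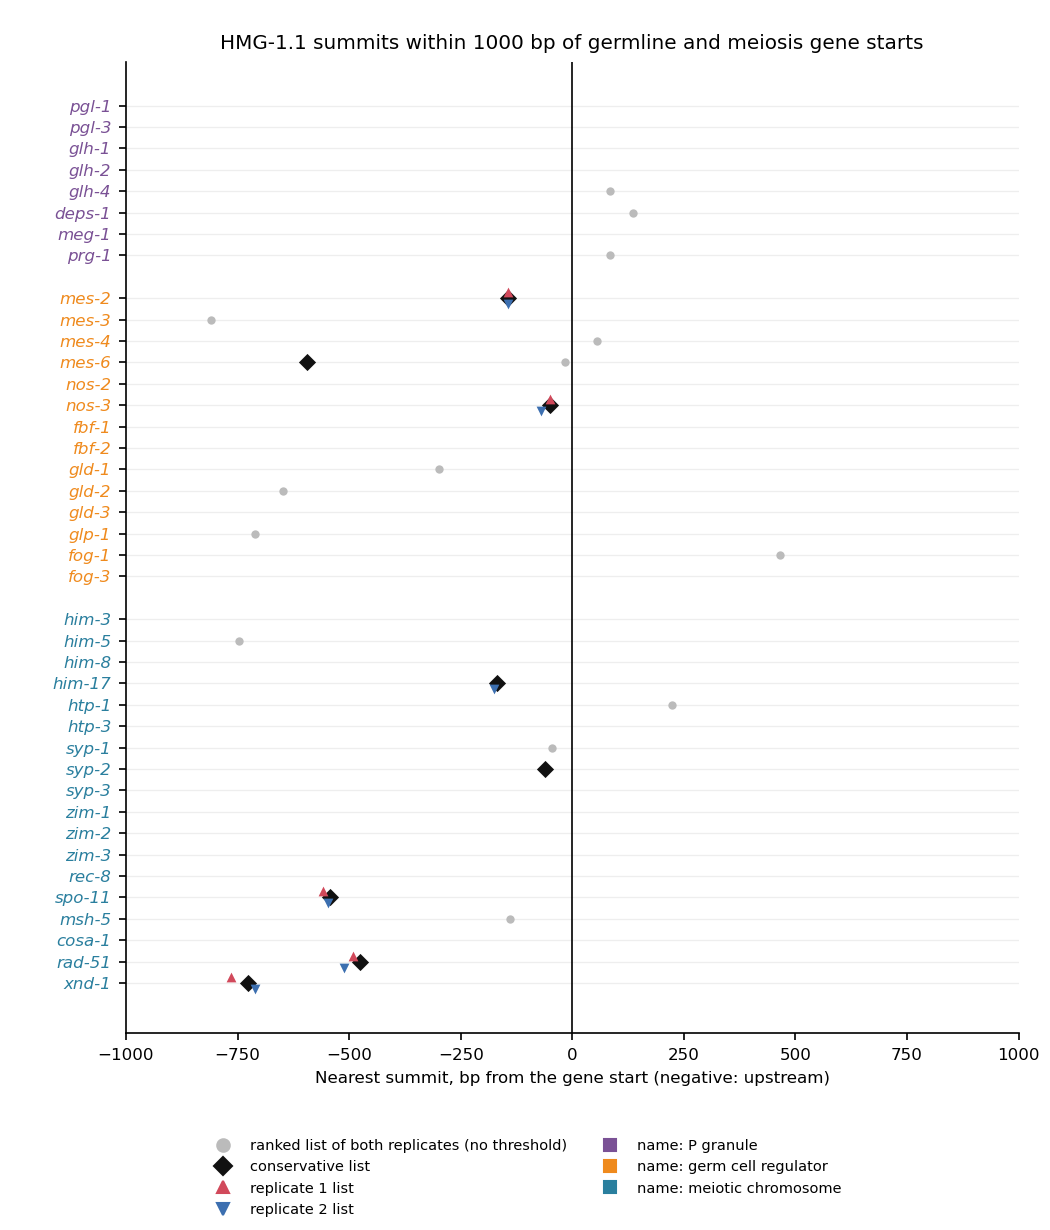
Position of the nearest summit (x axis, bp from the gene start, negative upstream) for each of the 40 genes (rows, coloured by class). Diamonds are the conservative list, triangles the replicates' own lists, and grey circles the ranked list of both replicates without a threshold, drawn behind the diamonds where they coincide; all 8 diamonds lie upstream, and no P granule gene has one.

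The 3 classes were set side by side without a test, since they hold few genes and share the same 2 samples. Of the P granule genes 0 of 8 had a summit (upper Wilson limit 32.4%), in the conservative list and in each replicate's own list. Of the germ cell regulators 3 of 14 had one (21.4%, 95% Wilson interval 7.57 to 47.6), and 2 in each replicate. Of the meiotic chromosome genes 5 of 18 had one (27.8%, 95% Wilson interval 12.5 to 50.9), with 3 in replicate 1 and 4 in replicate 2. The intervals of the 3 classes overlap, and each includes the 13.0% of all protein-coding genes.

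**Figure D2:**
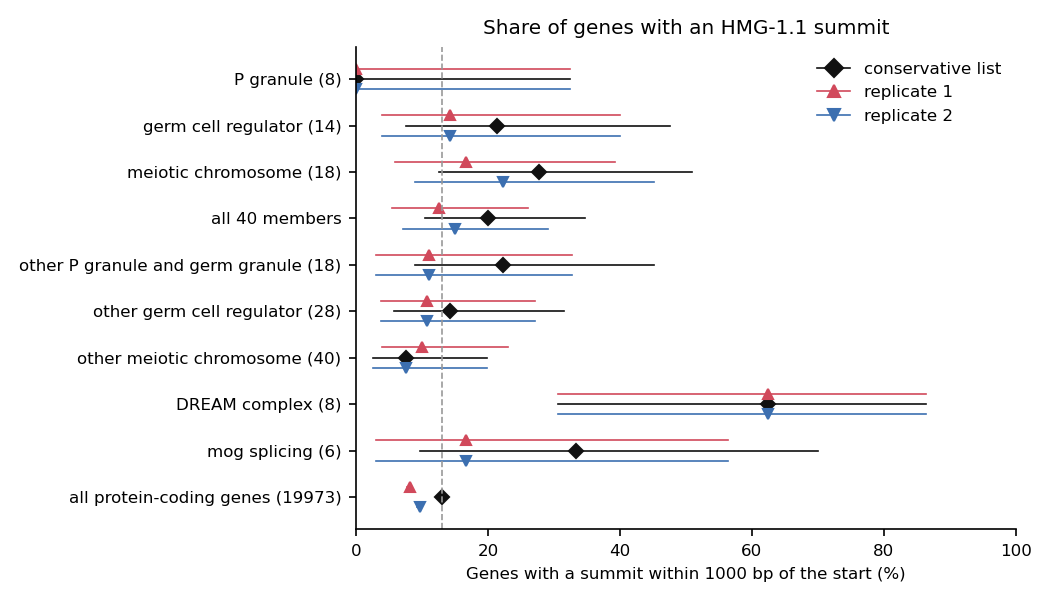
Share of genes that had a summit at most 1000 bp from the start (x axis, percent) in the conservative list and in each replicate's own list, with 95% Wilson intervals, for the classes, for lists of related genes and for all protein-coding genes (number of genes in brackets). The dashed line is the 13.0% of all protein-coding genes in the conservative list. The P granule genes are at 0. The interval of the DREAM complex genes, 30.6 to 86.3, lies above the line. The gene lists were chosen with earlier results of these data known, and the differences were not tested.

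No P granule gene had a conservative summit within 1000 bp. pgl-1 and pgl-3 encode the scaffold proteins of the granules, and glh-1, glh-2 and glh-4 encode helicases related to Vasa. Their nearest conservative summits lay at 18349, -24374, -16170, 18200 and -2181 bp from the start (negative values upstream), in that order. deps-1, which promotes granule assembly, had its nearest at 12120 bp, meg-1, which encodes a disordered granule protein, at 8997 bp, and prg-1, which encodes the Piwi protein of the piRNA pathway, at -7272 bp. Without a threshold, the ranked list of both replicates has 84052 peaks and reaches 64.9% of all protein-coding genes. It placed a weak peak at 3 of the 8, namely prg-1 (85 bp inside the gene, signal 40.9), glh-4 (84 bp inside, signal 36.1) and deps-1 (136 bp inside, signal 16.3).

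Of the 4 mes genes, whose products act in histone methylation, 2 had a site, mes-2 and mes-6 (50%, Wilson interval 15.0 to 85.0). The share of all protein-coding genes was 13.0%. In each replicate's own list 1 of the 4 had one, against 8.16% and 9.63% of all genes. This small group was not tested. mes-2 encodes the histone H3 lysine 27 methyltransferase of the worm PRC2 complex, and mes-6 and mes-3 encode its partners. The mes-2 summit (WBGene00003220, chromosome II, gene 14383973 to 14388454, plus strand) lay at -143 bp in the conservative list with a signal of 158, at -145 bp in replicate 1 (signal 82.5, rank 1045 of 2613) and at -143 bp in replicate 2 (78.6, rank 1497 of 3082). The 3 positions agree to within 2 bp. mes-6 (WBGene00003224, chromosome IV, 8511284 to 8513469, plus strand) had its summit at -594 bp with a signal of 82.5, rank 3101 of 4277, the lowest among the members.

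The mes-6 site was absent from both single lists and lay nearer to another gene. The score of the site in the conservative list was 1000. Peaks of the replicates' ranked lists overlapped it, with a signal of 33.9 and a score of 90 in replicate 1. In replicate 2 these were 45.1 and 271, where thresholded lists start at a score of 830. The start of tag-77, on the opposite strand, lay 142 bp from the summit. A nearer peak, at -17 bp with a signal of 67.5, had a score of 738 in the ranked list behind the conservative one, below the threshold. In the authors' other thresholded list of both replicates, which holds 4414 peaks, the same peak passed with a score of 856 and the peak at -594 bp was absent. Which of the 2 positions stands for mes-6 therefore depends on the list. mes-3 had a ranked peak at -809 bp (signal 21.0, score 116), and mes-4, which encodes a histone H3 lysine 36 methyltransferase, one at 55 bp inside the gene (signal 30.5, score 90).

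The third regulator with a site was nos-3, which encodes a Nanos-related protein that binds RNA. Its summit (WBGene00003785, chromosome II, 9746316 to 9750462, plus strand) lay at -49 bp with a signal of 119, at -49 bp in replicate 1 (49.6, rank 2168 of 2613) and at -71 bp in replicate 2 (64.6, rank 1968 of 3082). The start of Y53C12B.1 lies 238 bp upstream on the other strand, so the summit is between the 2 starts and nearer to nos-3.

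The other 9 regulators outside the MES group had no site above the threshold. In the ranked list gld-1, which encodes a repressor of translation, had a peak at -299 bp (signal 24.0), gld-2, a cytoplasmic poly(A) polymerase gene, at -649 bp (24.97), the Notch receptor gene glp-1 at -710 bp (6.07) and fog-1, a CPEB-related gene of the sperm fate decision, at 466 bp inside the gene (26.7). nos-2, a further Nanos-related gene, the PUF genes fbf-1 and fbf-2, gld-3, which encodes a partner of GLD-2, and fog-3, a further gene of the sperm fate decision, had no peak of any rank within 1000 bp. Among the 13 members with a ranked peak alone, the best rank was 12916 of 84052.

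The strongest member site was at rad-51, the recombinase gene of the repair and crossover group, in which 1 of 3 genes had a site. Of the break formation group 3 of 4 had one, with 2 in replicate 1 and 3 in replicate 2. The 95% Wilson intervals were 6.15 to 79.2 for repair and crossover and 30.1 to 95.4 for break formation. Among all protein-coding genes the share was 13.0%, and these small groups were not tested. rad-51 (WBGene00004297, chromosome IV, 10281634 to 10284244, minus strand) had its summit at -475 bp with a signal of 206, rank 817 of 4277. In replicate 1 it lay at -492 bp (87.3, rank 936 of 2613) and in replicate 2 at -512 bp (114, rank 809 of 3082). No other protein-coding start lay within 2000 bp of this summit, the nearest being ebax-1 at 2236 bp.

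xnd-1, whose product is a chromatin factor that shapes where breaks and crossovers form, had a site far from its start. The summit (WBGene00001514, chromosome III, 5604460 to 5607556, plus strand) lay at -727 bp with a signal of 161, at -764 bp in replicate 1 (63.1, rank 1611 of 2613) and at -710 bp in replicate 2 (103, rank 973 of 3082). The opposite-strand start of madf-11 was nearer, at 244 bp, and the start of the non-coding RNA gene C05D2.14 lay at 137 bp. It is the outermost of the 8 member sites.

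spo-11 encodes the topoisomerase-like enzyme that cuts DNA in meiosis. Its summit (WBGene00004985, chromosome IV, 11123133 to 11124862, minus strand) lay at -542 bp with a signal of 145, at -558 bp in replicate 1 (74.0, rank 1255 of 2613) and at -547 bp in replicate 2 (74.2, rank 1632 of 3082). The start of swsn-4, the ATPase gene of the SWI/SNF remodelling complex, lies 1162 bp from that of spo-11 on the other strand, and the summit fell near the middle, 620 bp from swsn-4.

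him-17 encodes a chromatin protein needed for break formation. Its summit (WBGene00001874, chromosome V, 13176711 to 13180185, plus strand) lay at -169 bp with a signal of 109, rank 2188 of 4277. Replicate 2 listed it at -176 bp (70.8, rank 1739 of 3082). In replicate 1 it was not in the thresholded list, while the ranked list had a peak there at -177 bp with a signal of 37.8 and a score of 620.

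Of the 4 genes grouped under break formation, him-5 had no summit within 1000 bp of its outermost start. Its nearest conservative summit (signal 77.2) lay 2145 bp downstream of that start, past the annotated end of the gene, which is 2029 bp long. This summit is the nearest of any member beyond the limit. It came within 1000 bp when any annotated transcript start was used. The ranked list has a peak at -747 bp (signal 16.5).

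syp-2 encodes a protein of the central region of the synaptonemal complex. The summit (WBGene00006376, chromosome V, 5536487 to 5537717, plus strand) lay at -61 bp with a signal of 85.9, rank 2969 of 4277. With a score of 1000 in the conservative list, it was in neither replicate's thresholded list. The overlapping ranked peaks had signals of 48.3 (score 791) and 41.7 (score 708), both below the threshold of 830. cox-16, a cytochrome c oxidase assembly gene, starts 183 bp from the summit on the other strand.

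Of the 4 axis and cohesin genes and the 4 pairing centre genes, 0 had a site, against 13.0% of all genes, and the upper Wilson limit was 49.0% for each group of 4. him-3, htp-1 and htp-3 encode axis proteins and rec-8 a meiotic cohesin subunit, while him-8, zim-1, zim-2 and zim-3 encode zinc finger proteins of the pairing centres. Among these 8 genes htp-1 alone had a ranked peak (64.9% of all genes have one), 224 bp inside the gene with a signal of 42.0. The zim-1, zim-2, zim-3 and him-8 genes follow each other on one strand of chromosome IV, and the nearest conservative summit lay upstream, at -44062 to -29243 bp from their starts. Of the synaptonemal complex genes syp-1 had a ranked peak at -45 bp (signal 40.4) and syp-3 had none. Of the crossover genes msh-5 had a ranked peak at -139 bp (signal 19.5), and cosa-1 had none.

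Taking ranked peaks as well, 21 of the 40 members (52.5%, 95% Wilson interval 37.5 to 67.1) had a peak of any rank within 1000 bp, against 64.9% of all protein-coding genes. The 13 with a ranked peak alone had signals from 6.07 to 42.0 (median 24.97) and scores from 32 to 202. Their peaks lay upstream in 7 cases and downstream in 6.

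The member sites were of middling strength and did not reach the top of the list. Signals ran from 82.5 to 206 with a median of 132, while the nearest summits of all 2599 protein-coding genes with one had a median of 124 (quartiles 88.9 and 190). No member ranked above 817 of 4277. In replicate 1 the 5 members had a median of 74.0 against 77.4 for all genes with a summit, and in replicate 2 the 6 had 76.4 against 82.9. The 3 sites of the conservative list that replicate 1 lacks (him-17, syp-2 and mes-6) are also the 3 weakest of the 8.

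**Figure D3:**
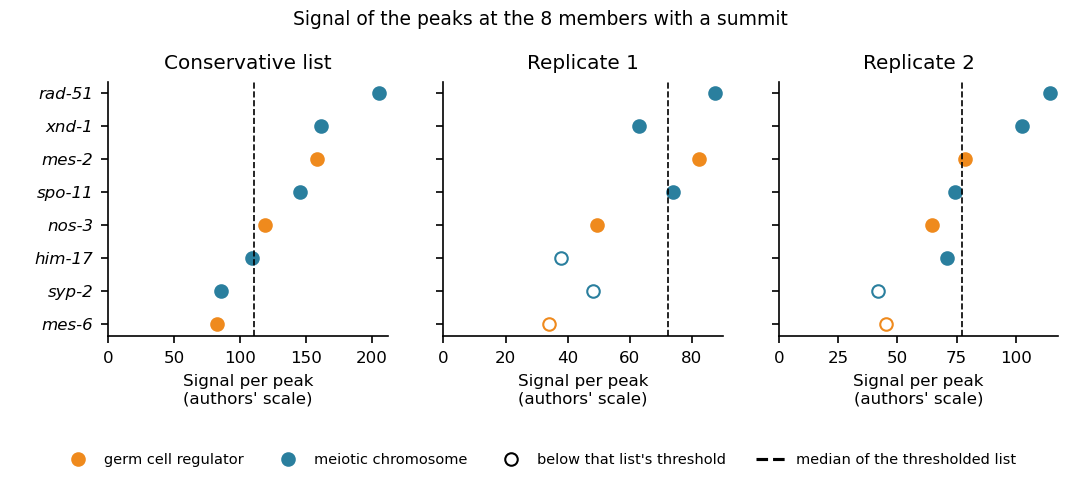
Signal of the peak (x axis, the authors' scale, which differs between lists) at the 8 members with a summit, in the conservative list and in each replicate. Open circles are overlapping peaks of a replicate's ranked list below its threshold, and dashed lines are the medians of the thresholded lists; rad-51 is highest in all 3 panels.

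All 8 member summits lay upstream of the start and between protein-coding genes. Of all protein-coding genes with a summit, 84.1% had it upstream. The median position was -322 bp for the members and -208 bp for all genes. It was not stable: it became -156 bp in the other thresholded list and where only the nearest start counted, -169 bp with any transcript start, and -492 bp without replicate 2. The members fell into 4 within 200 bp of the start (nos-3, syp-2, mes-2, him-17) and 4 beyond 400 bp (rad-51, spo-11, mes-6, xnd-1), and 32.1% of all genes with a summit had it beyond 400 bp. In the other thresholded list mes-6 changed sides, giving 5 and 3, and the other 7 positions were the same. rad-51, spo-11 and xnd-1 lay beyond 400 bp in both replicates too. All 8 peaks were 376 bp wide, which is also the median width over all genes with a summit.

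The limit of 1000 bp fell in a gap. The outermost site inside it was that of xnd-1, at -727 bp, and between 1000 and 2000 bp there was no member. Of the 32 members without a site, 5 had a conservative summit within 5000 bp (him-5, glh-4, syp-1, htp-1 and gld-2) and 27 had none. Within 5000 bp the members' share was 32.5%, near the 31.3% of all genes. Among all genes the share rose from 13.0% within 1000 bp to 18.3% within 2000 bp, while that of the members stayed at 20%. Within 500 bp it was 12.5% (5 of 40) against 9.78% of all genes.

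**Figure D4:**
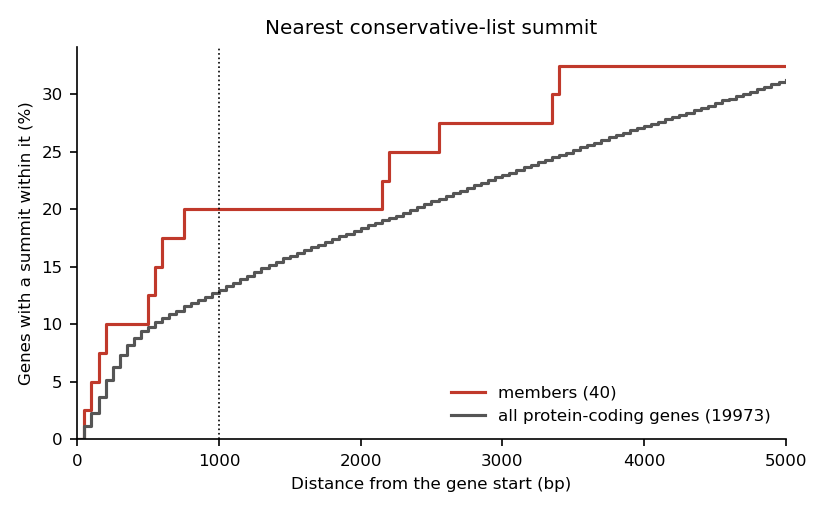
Share of genes (y axis, percent) with a conservative-list summit within a given distance of the start (x axis, bp), for the 40 members and for all 19973 protein-coding genes. The dotted line is the limit of 1000 bp; the members' share reaches 20% before it and stays there up to 2000 bp.

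Gene arrangement was described next, since many worm promoters are shared. A start was called operon-like where the nearest same-strand protein-coding gene ended at most 500 bp before it or overlapped it, divergent where otherwise an opposite-strand start lay at most 1000 bp upstream, and other in the remaining cases. Of 7 operon-like members 0 had a summit (upper Wilson limit 35.4%), against 9.09% of such genes overall. Of 17 divergent members 4 had one (23.5%, 95% Wilson interval 9.56 to 47.3), against 25.8%. Of the 16 others 4 had one (25%, 95% Wilson interval 10.2 to 49.5), against 10.8%.

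The operon-like members are glh-1, gld-1, gld-2, syp-1, zim-2, zim-3 and him-8. Following the same-strand chain upstream to its first gene gave 5 first genes, of which 1 had a conservative summit: K04F10.1, at the head of the chain that leads to gld-2, at -127 bp with a signal of 115. The chain of glh-1 begins at syp-4, a further synaptonemal complex gene, and that of gld-1 at golg-5. Neither first gene had one. Of all protein-coding genes 13.0% had one within 1000 bp. Conservative summits also lay inside the chains that lead to gld-2, at -3372 bp (signal 192), and to syp-1, at -2538 bp (124). The first genes of these chains start 4717 and 4586 bp from gld-2 and syp-1. Whether these chains are transcribed as operons was not tested.

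The 4 divergent sites differ in which gene they lie nearer to. nos-3 and syp-2 are nearer to the summit than their neighbours Y53C12B.1 and cox-16, and mes-6 and xnd-1 are farther from it than tag-77 and madf-11. pgl-1 and him-3 form a divergent pair of members, with starts 190 bp apart, and had no peak of any rank. The space upstream to the next protein-coding gene had a median of 665 bp for members with a site and 461.5 bp for those without, with overlapping ranges.

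By chromosome, 0 of 12 members on chromosome I had a site (upper Wilson limit 24.2%), although 18.7% of all protein-coding genes there had one. On chromosome II there were 2 of 6 (12.03% of all genes there), on III 1 of 3 (17.8%), on IV 3 of 12 (10.7%) and on V 2 of 6 (8.09%). The 1 member on X, meg-1, had none (15.5%). These differences were not tested. The members on chromosome I include 5 of the 8 P granule genes (glh-1, glh-2, glh-4, deps-1 and prg-1).

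Sequence around some members is repeated in the genome, and its part in the counts was not tested. All 8 members with a site had only unique 32-mers within 1000 bp of the start. Of the 32 without one, 20 had at least 95% unique 32-mers, and the lowest shares were 49.9% at glh-4 and 62.3% at fbf-1, whose neighbour fbf-2 had 81.9%. Also below 95% were the pairing centre genes zim-1 (93.4%), zim-2 (76.1%) and zim-3 (81.7%) and the P granule genes glh-1 (84.5%) and glh-2 (88.7%). The remaining ones were htp-1 (92.1%), syp-3 (92.3%), mes-4 (88.3%) and nos-2 (77.0%). Among all protein-coding genes 77.2% reached 95%.

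Related germline genes that are not members had a share near that of all genes. Of 86 other genes of the 3 roles, 11 had a conservative summit (12.8%, 95% Wilson interval 7.29 to 21.5), against 13.0% of all. Other germ granule genes had 4 of 18, with ifet-1, a translational repressor of the germ line (signal 512), and cgh-1, which encodes a DEAD-box RNA helicase (242), the strongest, then ego-1, an RNA-dependent RNA polymerase gene (86.4), and car-1, an RNA-binding protein gene (78.8). Other regulators had 4 of 28, namely the histone methyltransferase gene met-1 (238), the chromodomain protein gene mrg-1 (220), the RNA-binding protein gene spn-4 (156) and the sex determination gene fem-2 (86.2). Other meiotic chromosome genes had 3 of 40, namely hsr-9 (513), brc-1 (236) and brd-1 (155). The last 2 encode the worm BRCA1 and BARD1 proteins. Some of these summits were nearer to an opposite-strand start than to the gene named. That of ifet-1 lay at -505 bp, with the rps-1 start 768 bp upstream of ifet-1. Those of spn-4 and mrg-1 lay at -404 and -232 bp, with spe-39 and spcs-2 starting 548 and 375 bp upstream. The brd-1 summit lay 847 bp inside the gene.

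Genes of the DREAM complex, which represses germ line genes in somatic cells, had a conservative summit in 5 of 8 cases (62.5%, 95% Wilson interval 30.6 to 86.3). The count was also 5 of 8 in each replicate. The shares of all protein-coding genes were 13.0% in the conservative list and 8.16% and 9.63% in the replicates. Signals at the DREAM genes were 481 at lin-9, 462 at lin-54, 351 at lin-53, 229 at lin-35 and 226 at efl-1, each above the 206 of rad-51. The starts of lin-35, lin-53 and lin-54 are divergent, and 25.8% of all divergent starts had a conservative summit. The lin-54 and lin-53 summits, at -359 and -241 bp, were nearer to the opposite-strand starts of rpl-12 and nra-2, 393 and 467 bp upstream. The mog genes, splicing factor genes of the switch from sperm to oocytes, had 2 of 6 (95% Wilson interval 9.68 to 70.0), against 13.0% of all genes. Of these, mog-4 (signal 936) was in both replicates' lists as well and mog-3 (86.2) in neither. These comparisons were not tested.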

How the data were processed

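The peak lists were used as deposited, on ce11. Per the deposited file listings, each replicate's list derives from its alignment and a control alignment, and the series lists from both replicates. Which aligner and caller made them is not given in the sources used here. The ranked series list also has 8 columns on its input peak sets, which carry no sample names and were not used. The signal per peak is the authors' value, on a scale not stated, and is compared within a list only. The deposited score is the authors' IDR score up to 1000, and thresholded lists start at 830. The −log10 q-value and −log10 global IDR per peak were used as deposited, for alternatives only. In the conservative list, 700 of 4277 peaks have a q-value above 0.05.

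Gene starts are the outermost annotated 5′ ends of Ensembl release 115 (WBcel235, the same build). Worm trans-splicing can place an annotated start downstream of the promoter. Sequences were read from the NCBI RefSeq assembly of that build. The nearest summit within 1000 bp was taken per gene and list. Intervals are 95% Wilson. Scripts used Python 3.11.15, numpy 2.4.6, pandas 2.3.3, scipy 1.17.1 and matplotlib 3.10.9, and the summit matching was tested on simulated data.

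Members, classes and related gene lists were chosen with earlier results of these data known. All members are accounted for. Of each related list the up to 4 strongest genes were to be named, and efl-1 was added after its value was seen. Of 105 symbols in the related lists, 5 were not matched (prg-2, msh-4, rad-54, smc-1 and mog-6). Alternatives were other distances, starts, lists, thresholds and arrangement limits, and leaving out each replicate.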

Additional observations from a re-analysis of the deposited data

How the results depend on the processing

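Of 87 alternative values, 57 stayed within the limits set for a change, 30 moved and 0 reversed. Only the median position could reverse under the rule used, since the other values cannot change sign. The values at a global IDR of at most 0.01 could not move, because the highest in the conservative list was 0.00999. The count of 8 members became 4 within 250 bp, 5 within 500 bp, 5 in the stronger part of the list by signal, 5 at a global IDR of at most 0.001 (chosen after seeing the data) and 5 to 6 when a replicate was left out. The share of all protein-coding genes fell from 13.0% to 6.26%, 9.78%, 7.75%, 8.33% and 8.16 to 9.63% in the same order. The meiotic chromosome count of 5 became 2, 3, 3, 3 and 3 to 4 under the same settings in that order. The mean count per replicate fell to 3 within 500 bp. The median signal of 132 became 114 within 250 bp, 119 within 500 bp, 158 in the stronger part, 158 at the IDR of 0.001 and 119 with any transcript start, and was 74.0 to 76.4 in the single replicates, whose scale differs. The median position became -102 within 250 bp, -143 within 500 bp, -156 in the other thresholded list, -475 in the stronger part, -475 at the IDR of 0.001, -169 with any transcript start, -156 where only the nearest protein-coding gene counted, and -492 to -344 with a replicate left out. With an operon-like gap of 1000 bp the operon-like count became 2 and the other count 2, and with a divergent distance of 500 bp the divergent count became 2. The GC median of 48.5% became 40.05% with 100 bp to either side of the summit. Causes were not tested. The P granule count was 0 in every alternative run. Settings that only narrow the conservative list could not have raised it. The distance of 2000 bp, the other lists and any transcript start could have, and gave 0. The same 5 genes (mes-2, nos-3, rad-51, spo-11, xnd-1) remained in the stronger part, at the IDR of 0.001 and without replicate 2. No paired analysis was possible because there is 1 group. Precision is limited by 2 replicates and unknown depth.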
